A study of Mus musculus with 6 samples.

Results

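The fibroblast growth factor (FGF) ligands Fgf1, Fgf2, Fgf7, Fgf10 and Fgf18 and the receptors Fgfr1, Fgfr2, Fgfr3 and Fgfr4 were followed through the cell types of the aged mouse lung. These 9 genes were taken by symbol from the 31054 features of the count matrices, and each symbol matched 1 row. Lungs of 6 male C57BL/6 mice of 21 months were profiled by droplet-based single-cell RNA sequencing of transcript 3′ ends, with 3 mice and 3 libraries in each group. The groups carry the labels p16-DTR (genotype p16-CreERT2/R26-LSL-DTR) and control (p16-CreERT2 alone), so all mice had a tamoxifen-inducible Cre recombinase under the p16 promoter, and only the first group had a Cre-dependent diphtheria toxin receptor. All mice, controls included, were given tamoxifen for 5 days and, after an interval of 2 weeks, diphtheria toxin for 5 days, and recovered for 2 weeks before collection. Each library was made from 20000 CD45-negative and 9000 CD45-positive cells of 1 lung, sorted by CD45, so the mixture does not give the makeup of the tissue.

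FGF ligands are secreted proteins that bind tyrosine kinase receptors together with heparan sulfate, and the receptors signal largely through adaptor proteins and RAS. In the lung, Fgf7 and Fgf10 made by mesenchymal cells act on the epithelial splice form of Fgfr2, Fgf10 is needed for the lung to form its branches, and Fgf18 takes part in forming alveoli. Sprouty, Spred and dual-specificity phosphatase (Dusp) proteins limit the signal, and Etv transcription factors, Egr1 and Fos are induced by it. Counts of transcript 3′ ends do not separate the splice forms of a receptor.

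On GRCm38, the protein-coding genes lie at chr18:38838673-38929472 (Fgf1, minus strand), chr3:37348346-37410108 (Fgf2, plus), chr2:126034658-126091185 (Fgf7, plus), chr13:118669791-118792115 (Fgf10, plus) and chr11:33117430-33147400 (Fgf18, minus). The receptor genes lie at chr8:25513654-25575718 (Fgfr1, plus), chr7:130162451-133123350 (Fgfr2, minus), chr5:33721674-33737068 (Fgfr3, plus) and chr13:55152640-55168759 (Fgfr4, plus). The annotated span of Fgfr2 covers 2960900 bases and overlaps 46 other genes of the matrix, 21 of them on the same strand. Its counts are therefore uncertain where reads of overlapping genes could be assigned to either. Fgf2 overlaps the protein-coding gene Nudt6 and Fgf7 overlaps Fam227b, both on the opposite strand. Fgf1, Fgf18, Fgfr3 and Fgfr4 overlap 0 other genes of the matrix.

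The libraries held 13482 to 17332 cell barcodes with median counts of 16588 to 18149 UMIs (unique molecular identifiers, each standing for 1 captured transcript), and any pair of libraries shared 59 to 94 barcodes. Cdkn2a, which encodes p16 and drives the Cre, is given, like all levels here, as counts per 1000000 UMIs of the library or class (CPM). It was counted at 7.10, 8.57 and 7.31 CPM where the label was p16-DTR and at 1.15, 2.60 and 2.84 in the control libraries. Cdkn2a thus went against the labelled removal of p16-expressing cells, being higher in every library labelled p16-DTR (7.66 ± 0.791 against 2.20 ± 0.913 CPM, SD, n = 3 each), and directions below are between libraries as labelled. Its log2 fold change over whole libraries was 1.86 (SE 0.32, adjusted p = 0.126 by edgeR's quasi-likelihood test with Benjamini-Hochberg adjustment). By class, edgeR called Cdkn2a higher in 7 classes, among them alveolar fibroblasts (5.48 ± 1.04 against 0.150 ± 0.0408 CPM, adjusted p = 0.000528) and B cells (16.04 ± 2.73 against 0.720 ± 0.577, adjusted p = 0.0175). In aerocytes the groups overlapped (40.8 ± 6.65 against 34.1 ± 10.2 CPM, adjusted p = 0.560). Whether transcripts of the p16-CreERT2 allele, which both groups carry, were counted as Cdkn2a was not tested. Counts of transcript 3′ ends also do not separate transcript forms of Cdkn2a, so a rise of p16 itself was not shown. After filtering, 91156 cells remained, and 78227 of them (85.8%) were placed in 1 of 28 classes by marker genes that include no FGF gene. Levels are given for the 24 classes with at least 20 cells in every library and tests for the 18 with at least 50. In each of these 24 classes, at least 4 markers of its own list were highest there among all classes. Alveolar fibroblasts made up 25.3% ± 6.91 of retained control cells and 18.8% ± 3.45 of those labelled p16-DTR. General capillary endothelial cells made up 20.1% ± 4.44 and 24.8% ± 1.04.

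These levels were set in order within a gene and not between genes. Fgf1, which can bind all FGF receptors, was highest in alveolar type 1 cells, the flat gas-exchange epithelium. There the control libraries held 647, 548 and 542 and the libraries labelled p16-DTR 477, 416 and 449 CPM. Aerocytes, the capillary endothelial cells that face alveolar type 1 cells, came next at 269 ± 16.3 in controls (SD, n = 3). Both steps of this order held in all 6 libraries. Alveolar type 2 (88.5 ± 5.69), ciliated (80.7 ± 5.08) and mesothelial cells (72.2 ± 66.0) followed, and these neighbours did not keep their order in every library. Alveolar type 1 cells were shallow, with a median of 1792 UMIs per cell in controls, and few, at 53 to 137 cells per library.

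The other ligands were highest in mesenchymal classes. Fgf2, a ligand exported without a signal peptide, stood at 119 ± 23.4 in peribronchial, 114 ± 5.94 in alveolar and 81.9 ± 15.3 in adventitial fibroblasts of the controls. The first of these steps held in 4 of 6 libraries, and the second in all 6. Fgf7 showed the same classes, at 153 ± 18.5 in peribronchial, 143 ± 4.12 in alveolar and 91.1 ± 2.20 in adventitial fibroblasts, with the order of the first pair kept in 2 of 6 libraries. Smooth muscle held lower levels of both, 35.6 ± 8.09 for Fgf2 and 42.3 ± 7.53 for Fgf7. Fgf10 was highest in alveolar fibroblasts of all 6 libraries, with control values of 353, 342 and 422. It stood at 164 ± 15.2 in adventitial and 99.5 ± 18.6 in peribronchial fibroblasts, and each of these steps held in all 6 libraries. In every class outside these fibroblasts the mean Fgf10 level of controls was at most 6.83. Alveolar fibroblasts supplied 81.2% of all Fgf10 UMIs, 76.9% of Fgf7 UMIs and 74.7% of Fgf2 UMIs (means of 6 libraries).

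Fgf18 had another distribution. Peribronchial fibroblasts, marked by Hhip, Aspn and Lgr6, held 271, 377 and 450 CPM in controls and supplied 62.7% of all Fgf18 UMIs (52.0% to 71.3% over libraries), while making up 1.16% ± 0.215 of retained control cells. Mesothelial cells (97.7 ± 40.8) and alveolar type 1 cells (78.6 ± 15.2) followed and could not be ordered, since mesothelial cells were higher in 4 of 6 libraries. Alveolar fibroblasts, the main source of the other mesenchymal ligands, held 0.535 ± 0.105. The fibroblast classes therefore separated into a Fgf10-high alveolar class and a Fgf18-high peribronchial class, while Fgf2 and Fgf7 were shared.

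**Figure D1:**
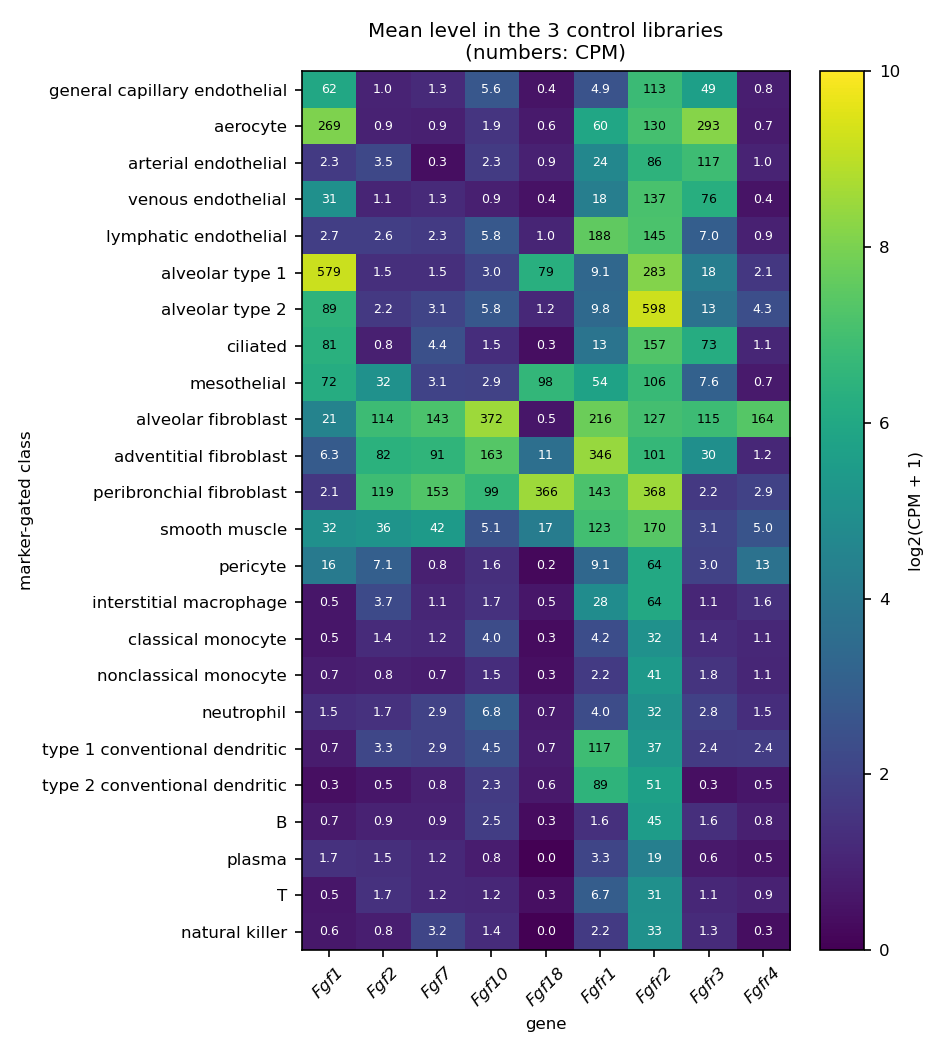
Mean level of each gene (columns) in 24 marker-gated classes (rows) of the 3 control libraries. Colour shows log2(CPM + 1) and the numbers give CPM, with Fgf1 at 579 in alveolar type 1 cells, Fgf10 at 372 in alveolar fibroblasts and Fgfr2 at 598 in alveolar type 2 cells.

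Among the receptors, Fgfr1 was highest in adventitial fibroblasts (346 ± 17.8 in controls), then in alveolar fibroblasts (216 ± 15.1), lymphatic endothelial cells (188 ± 6.14) and peribronchial fibroblasts (143 ± 7.69). Each of these 4 classes was above the next in all 6 libraries. Of the immune classes, type 1 and type 2 conventional dendritic cells stood apart from the rest, at 117 ± 8.98 and 88.8 ± 9.58. B cells held 1.65 ± 0.246 and neutrophils 4.03 ± 1.56. Among blood endothelial classes Fgfr1 was highest in aerocytes (60.2 ± 4.601), against 23.6 ± 7.14 in arterial, 18.4 ± 1.22 in venous and 4.94 ± 0.257 in general capillary cells.

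Fgfr2, the receptor for Fgf7 and Fgf10, was highest in alveolar type 2 cells, the surfactant-producing progenitors of the alveolar epithelium. Control libraries held 652, 582 and 561 CPM and libraries labelled p16-DTR 504, 444 and 374. Peribronchial fibroblasts came next (368 ± 33.4), ahead of alveolar type 1 cells (283 ± 13.3), and both steps held in all 6 libraries. Fgfr2 differed from the other receptors in having no class near 0: immune classes ranged from 18.9 in plasma cells to 64.2 in interstitial macrophages. In neutrophils, 25.3% of control cells had a Fgfr2 UMI, or 13.04% after thinning each cell to 5000 UMIs, while Fgfr3 was found in 2.51% (1.07% thinned) of the same cells. Whether these immune counts come from the Fgfr2 transcript or from one of the overlapping genes was not tested.

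Fgfr3 was highest in an endothelial class. Aerocytes held 283, 305 and 291 CPM in controls, above every other class in all 6 libraries. Arterial endothelial cells (117 ± 30.0), alveolar fibroblasts (115 ± 5.08), venous endothelial cells (75.9 ± 17.9) and ciliated cells (73.0 ± 4.31) followed, and their order varied between libraries. General capillary cells held 49.2 ± 10.6 and lymphatic endothelial cells 7.003 ± 2.69. By number of UMIs, alveolar fibroblasts gave 40.2% of Fgfr3 (29.5% to 61.9% over libraries), general capillary cells 19.1% (7.07% to 33.9%) and aerocytes 17.5% (11.1% to 23.8%), as means of 6 libraries. The range of general capillary cells overlapped both others, while those of alveolar fibroblasts and aerocytes did not overlap. Fgfr4 was nearly confined to 1 class of the 24: alveolar fibroblasts held 165 ± 6.33 in controls and gave 92.4% of its UMIs (92.1% to 92.7% over libraries). Pericytes were second at 12.5 ± 2.04, in all 6 libraries, and alveolar type 2 cells held 4.31 ± 4.96. Alveolar fibroblasts ranked among the first 9 of the 24 classes for each of the 4 receptors.

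Promoter sequences from RefSeq (GRCm38.p6) covered 7 of the 9 genes, without Fgf1 and Fgfr1. The stretch upstream of Fgfr3 is printed because values of Fgfr3 and of the transcription factor Egr1 are both reported for blood endothelium. A link between Egr1 and Fgfr3 was not tested. It runs over the plus strand of chr5:33721474-33721673, the 200 bases before the annotated gene start, and capitals mark the letters GCGGGGGCG of an EGR motif on the minus strand, whose outermost base lies 13 bases before the start.
Fgfr3: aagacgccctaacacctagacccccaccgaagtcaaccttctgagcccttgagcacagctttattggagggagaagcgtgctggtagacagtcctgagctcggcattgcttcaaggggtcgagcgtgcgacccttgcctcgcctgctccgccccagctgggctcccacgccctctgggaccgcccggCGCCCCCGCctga
The letters GCGTGGGCG or GCGGGGGCG were searched on both strands in the 250 bases before each RefSeq start (neither contains the other). They occurred once for Fgf2 and once for Fgfr3 (at 1 of its 2 starts), and in 3.06% of all 32851 windows. The matching Fgfr3 window was chr5:33721474-33721723, which ends past the annotated gene start. The windows with a match held 62.4% (Fgf2) and 66.8% (Fgfr3) G and C, and those without 43.6% to 77.2%. The median of all windows was 52.4%, so 3.06% is not a share at equal G and C content. No match was found for Fgf7, Fgf10, Fgf18, Fgfr2 and Fgfr4. A match describes the letters of the window and not binding.

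Fgf10 counts varied widely from cell to cell. Among alveolar fibroblasts thinned to 5000 UMIs, 60.1% had a Fgf10 UMI (56.9% to 64.3% over the 6 libraries), and the variance of its counts was 3.92 times the mean (2.86 to 5.15). For the other 8 genes the ratio lay between 1.16 and 1.55. It can rise with the mean count, which was highest for Fgf10 (1.78 UMIs per cell, against 0.00283 to 1.19 for the others), so it does not rank the genes. Cells were then split by their thinned Fgf10 count, with 35.7% to 43.1% of them at 0 and 19.4% to 28.3% at 3 or more, and the cells between were left out. This split is a range along 1 gene and not a cell type, and the other genes set beside it were chosen after values of these data were seen. Cells with at least 3 Fgf10 UMIs held less Fgfr4 (143 ± 17.7 against 174 ± 21.0 CPM, SD over 6 libraries), lower in 6 of 6 libraries. Of the 6 alveolar fibroblast markers, Tcf21 (406 against 516), Slc7a10 (264 against 319), Inmt and Ces1d were also lower in 6 of 6, while Npnt was higher in 2 of 6 and Limch1 in 3 of 6. Fgfr3 (115 ± 13.8 against 104 ± 8.65), Fgf2 (138 ± 20.6 against 122 ± 22.3) and the collagen gene Col3a1 (711 against 613) were higher in 6 of 6. Col1a1 (455 against 409) was also higher in 6 of 6, Fgf7 (149 against 139) in 5 of 6, and Fgf1 and Tnc in 1 of 6. Fgf18 (0.376 against 1.02), Scube2 (433 against 494) and Pdgfra (1400 against 1480) were higher in 0 of 6. Fgfr1 (241 against 237) and Fgfr2 (119 in both) were higher in 3 of 6 libraries and lower in the others.

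The genes most like each FGF gene were sought by Pearson's r of log2(mean control CPM + 1) over the 24 classes, among 12688 genes that reached 20 CPM in a class. These correlations describe classes that share libraries and carry no test. The most alike were Olfml1 (r = 0.961) and Sod3 (0.958) for Fgf2, Kcns3 (0.966) and Unc5c (0.965) for Fgf7, and Gm16263 (0.958) and Srpx2 (0.953) for Fgf10. For Fgf18 they were Mapk4 (0.878), itself a marker used in the gate, and Spock2 (0.863), and for Fgf1 Tcta (0.892) and Sema3b (0.888). Fgfr1 was most like Egr1 (0.829) and Fosb (0.816), Fgfr2 most like Abcd3 (0.897) and Tle2 (0.886), Fgfr3 most like Mcc (0.880) and Prickle2 (0.866), and Fgfr4 most like Best3 (0.908) and Scube2 (0.888).

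The groups were compared within each class by edgeR's quasi-likelihood test on UMIs summed per library, with Benjamini-Hochberg adjustment over all genes of the class at 0.05. Of 100 combinations of gene and class that passed the filter on low counts, 2 were called, both higher in the libraries labelled p16-DTR: Fgf2 in peribronchial fibroblasts and Fgfr1 in aerocytes. Over all genes and classes 0.6% of 216389 tests were called (0.253% higher and 0.348% lower). Of the 100 combinations, 42 were higher and 58 lower, while 49.7% of all tests were higher. Unadjusted p was under 0.05 in 35 of them, against 14.1% of all tests, so most differences seen here did not pass the adjustment. The values of 1 group all lay above those of the other in 14 combinations (higher) and 23 (lower), against 7.7% and 12.2% of all tests. The median log2 fold change was -0.11 over the 100 combinations and -0.00128 over all tests. Calls by DESeq2 or other settings are named below without the share of all genes that these called in a class.

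Fgf2 rose in peribronchial fibroblasts, the cells around airways and alveolar ducts. The libraries labelled p16-DTR held 179, 318 and 273 CPM and the control libraries 97.2, 144 and 116. Every library labelled p16-DTR was above every control (256.8 ± 70.9 against 118.8 ± 23.4, log2 fold change 1.15, SE 0.21, adjusted p = 0.0265 by edgeR, 1.78% of 11052 genes called in this class). The call was kept in 2 of 6 fits that left out a library, with adjusted p from 0.00206 to 0.107, and was lost with adjustment over all classes together (adjusted p = 0.0556). Fgf2 stood at 117, 169 and 142 in alveolar fibroblasts of the libraries labelled p16-DTR and at 107, 117 and 118 in controls, and these groups overlapped (0.34, SE 0.12, adjusted p = 0.151). The group difference was larger in peribronchial than in alveolar fibroblasts by 0.81 on the log2 scale (SE 0.13), with an adjusted p of 0.00642 for the interaction in edgeR. It was 0.71 (adjusted p = 0.0511) without control replicate 1. The peribronchial class was chosen for this comparison by its p in the same data, and the adjusted p does not account for that. Markers of the peribronchial class summed to 9700 to 10420 CPM in libraries labelled p16-DTR and 10480 to 11200 in controls. In the same cells alveolar fibroblast markers summed to 178 to 333 against 253 to 349, adventitial markers to 545 to 588 against 630 to 709, and smooth muscle markers to 1128 to 1547 against 1113 to 1481. Their part in the result was not tested.

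Fgf7 and Fgf18 did not pass edgeR's test in the same fibroblasts, while DESeq2 (adjusted p = 0.0342) and the stricter gate (adjusted p = 0.0468 by edgeR) called Fgf7 lower. Fgf7 stood at 116, 78.1 and 106 against 169, 156 and 133 in controls, without overlap (-0.57, SE 0.14, adjusted p = 0.0693). Fgf18 stood at 425, 600 and 522 against 271, 377 and 450, with overlap (0.53, SE 0.18, adjusted p = 0.149). Without the filter on low counts, edgeR called both (adjusted p = 0.00038 for Fgf7 and 0.000228 for Fgf18). In this class Fgf2 was thus higher and Fgf7 lower in every library labelled p16-DTR than in any control, as were 9.65% of all genes tested on the higher and 14.3% on the lower side. Fgf10 overlapped between the groups there (61.3, 130 and 64.4 against 111, 110 and 78.0).

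**Figure D2:**
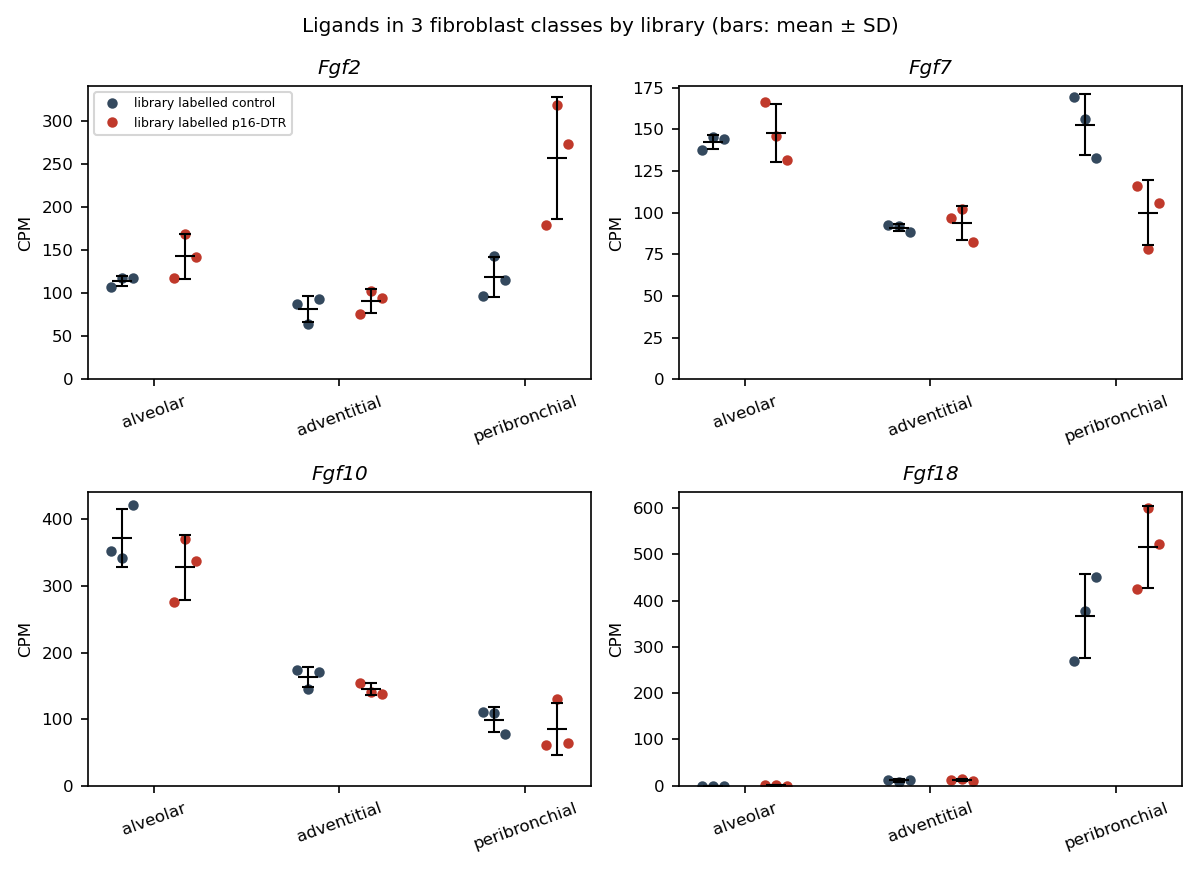
CPM of Fgf2, Fgf7, Fgf10 and Fgf18 in each library for 3 fibroblast classes, with points for libraries and bars for mean ± SD (n = 3). Fgf2 in peribronchial fibroblasts lies between 179 and 318 in libraries labelled p16-DTR and between 97.2 and 144 in controls, and Fgf10 overlaps between the groups in all 3 classes.

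Fgf10 was lower by its fitted fold in each of the 10 classes tested, with 0 calls by edgeR's main fit. Since the classes share libraries, these directions are not independent, and no share of all genes is given beside them. DESeq2 called Fgf10 lower in neutrophils (adjusted p = 0.000303) and alveolar type 2 cells (adjusted p = 0.0102). Counting DESeq2, 2 of 9 other settings called it in each of these classes, with a lowest adjusted p of 3.82e-05 and 0.00416 by edgeR. In alveolar fibroblasts it stood at 275, 371 and 338 in libraries labelled p16-DTR and at 353, 342 and 422 in controls, and in adventitial fibroblasts at 155, 141 and 139 against 174, 146 and 171. Both pairs of groups overlapped. The groups did not overlap in neutrophils (1.06, 1.05 and 0.872 against 11.7, 5.34 and 3.42), alveolar type 2 cells (0.8002, 1.37 and 0.896 against 4.99, 2.38 and 10.0) and B cells (1.21, 1.31 and 0.749 against 2.04, 1.66 and 3.78). Of all genes tested, 17.1% (neutrophils), 16.1% (alveolar type 2) and 12.5% (B) were lower without overlap. The adjusted p by edgeR was 0.0865, 0.131 and 0.327 in these 3 classes. All these levels are far below those of fibroblasts, and the summed markers of alveolar fibroblasts moved the same way. They were 83.5 to 103 against 163 to 261 in neutrophils, 852 to 934 against 1010 to 1359 in alveolar type 2 cells, and 40.6 to 75.3 against 89.3 to 122 in B cells. Of these 6 markers, 5 were lower on average in the libraries labelled p16-DTR in neutrophils and in alveolar type 2 cells and 6 in B cells, and none was at 0 in all libraries. The 5 pan-mesenchymal markers summed to 18.43 to 26.04 against 28.42 to 49.58 in neutrophils, without overlap. Their sums overlapped in alveolar type 2 cells (10.99 to 24.21 against 17.22 to 84.47) and B cells (10.99 to 24.64 against 19.97 to 22.23). In controls, Fgf10 overlapped between alveolar type 2 cells and neutrophils. Alveolar fibroblast markers summed higher in alveolar type 2 cells than in neutrophils, while the sums of pan-mesenchymal markers overlapped between these classes. The part of either marker list in the Fgf10 values was not tested. Fgf7 in neutrophils (0.668 ± 0.442 against 2.89 ± 1.09, adjusted p = 0.154), Fgf2 (0.642 ± 0.490 against 1.66 ± 0.451, adjusted p = 0.303) and Fgfr3 (0.875 ± 0.429 against 2.78 ± 0.406, adjusted p = 0.169) had lower means in the same cells, with 0 calls by edgeR's main fit and by DESeq2. For Fgf7, 1 of 8 other settings made a call in neutrophils (adjusted p = 0.0246 by edgeR). When cells with markers of a second compartment were kept, the log2 fold change of Fgf10 went from -2.72 to -1.52 in neutrophils (adjusted p = 0.327), from -2.42 to -1.42 in alveolar type 2 cells (adjusted p = 0.498) and from -1.20 to -0.79 in B cells (adjusted p = 0.496). In neutrophils it then went from -1.95 to -0.51 for Fgf7, from -1.42 to 0.15 for Fgf2 and from -1.49 to -0.20 for Fgfr3.

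Fgf1 was compared in 9 classes, with 0 calls by edgeR and 3 at an unadjusted p under 0.05. DESeq2 (adjusted p = 0.00152) called it in aerocytes, as did edgeR with the stricter gate (adjusted p = 0.0457) and without the filter on low counts (adjusted p = 0.00133). Over the 9 classes the groups did not overlap in 1 on the higher side and in 4 on the lower side. In aerocytes the libraries labelled p16-DTR held 302, 343 and 356 and the controls 251, 278 and 280, higher without overlap (0.35, SE 0.07, adjusted p = 0.0773). In alveolar type 1 cells the values were 477, 416 and 449 against 647, 548 and 542, lower without overlap (-0.33, SE 0.13, adjusted p = 0.41). It was also lower without overlap in alveolar type 2 cells (77.2 ± 6.68 against 88.5 ± 5.69, adjusted p = 0.592), ciliated cells (72.8 ± 1.95 against 80.7 ± 5.08, adjusted p = 0.697) and alveolar fibroblasts (17.1 ± 1.28 against 20.9 ± 2.36, adjusted p = 0.138). Of all genes tested, 7.19% were higher without overlap in aerocytes, and 9.42% (alveolar type 1), 16.1% (alveolar type 2), 8.53% (ciliated) and 15.9% (alveolar fibroblasts) were lower. The difference between aerocytes and alveolar type 1 cells was not tested. Fgf18 in alveolar type 1 cells stood at 56.5, 54.3 and 58.9 against 84.8, 61.3 and 89.7, also without overlap.

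Fgfr1 rose in aerocytes. The libraries labelled p16-DTR held 78.6, 80.5 and 85.9 CPM and the controls 55.6, 64.8 and 60.2 (81.7 ± 3.78 against 60.2 ± 4.601, log2 fold change 0.48, SE 0.07, adjusted p = 0.0306 by edgeR, 0.771% of 12315 genes called). The groups were well apart, and the log2 fold change stayed between 0.42 and 0.53 when each library was left out. The call was kept in 1 of these 6 fits, with adjusted p from 0.0203 to 0.0965. After thinning to 5000 UMIs, 30.8% of aerocytes had a Fgfr1 UMI in libraries labelled p16-DTR and 23.9% in controls, against 0.915% and 1.47% of neutrophils. General capillary markers summed to 487 to 506 CPM in the aerocytes of libraries labelled p16-DTR and 425 to 462 in those of controls. Fgfr1 in general capillary cells themselves was 4.89 ± 0.180 and 4.94 ± 0.257. Alveolar fibroblast markers summed to 37.7 to 63.4 against 58.6 to 148 in aerocytes. The part of these markers in the Fgfr1 values was not tested.

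Fgfr1 was also higher without overlap in 6 further fitted classes, with 0 calls by edgeR and 1 by DESeq2 (alveolar fibroblasts, adjusted p = 0.00581): alveolar fibroblasts (260 ± 8.05 against 216 ± 15.1, adjusted p = 0.0751), peribronchial fibroblasts (171 ± 0.738 against 143 ± 7.69, adjusted p = 0.124), lymphatic endothelial cells (236 ± 28.7 against 188 ± 6.14, adjusted p = 0.263), pericytes, ciliated cells and B cells. Of all genes tested, 11.4%, 9.65%, 9%, 7.57%, 5.13% and 6.25% were higher without overlap in these classes, in that order. Across the 16 classes tested, 12 were higher by fitted fold and 4 lower. With library size alone as scaling, 11 were higher. These directions are not independent, since the classes share libraries, and no share of all genes is given beside them. The class with the highest level, adventitial fibroblasts, stood at 373, 371 and 354 against 325, 357 and 355, with overlap. The difference between aerocytes and adventitial fibroblasts was 0.39 on the log2 scale (SE 0.09), with an adjusted p of 0.335 for the interaction in edgeR, so a difference between these classes was not shown.

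Fgfr2 was lower by fitted fold in 15 of 18 classes and called in 0 of them by edgeR's main fit and by DESeq2, with 8 at an unadjusted p under 0.05. In venous endothelial cells 2 of 9 other settings called Fgfr2, with a lowest adjusted p of 0.0405 by edgeR. In 8 classes every library labelled p16-DTR was below every control. These were general capillary, arterial, venous and lymphatic endothelial cells, alveolar type 2 cells, ciliated cells, and alveolar and adventitial fibroblasts. Of all genes tested, 19.8%, 8.52%, 13.5%, 8.47%, 16.1%, 8.53%, 15.9% and 9.28% were lower without overlap in these classes, in that order. In alveolar type 2 cells the log2 fold change was -0.36 (SE 0.12, adjusted p = 0.219), in venous endothelial cells -0.31 (109 ± 9.65 against 137 ± 6.06, SE 0.08, adjusted p = 0.0847), and in alveolar fibroblasts -0.18 (110 ± 7.48 against 127 ± 8.86, adjusted p = 0.175). Immune classes showed fitted folds on both sides of 0, and neutrophils stood at 33.8 ± 6.53 against 32.4 ± 1.72. Of the 6526 genes tested in all 18 classes, 5.65% were lower in at least 15. The classes share libraries, so the 15 directions are not independent of each other.

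Fgfr3 was higher without overlap in each of the 4 blood endothelial classes, with 0 calls by edgeR's main fit. General capillary cells held 75.6, 76.4 and 102 CPM in libraries labelled p16-DTR and 42.1, 44.0 and 61.4 in controls (0.83, SE 0.17, adjusted p = 0.0534). Venous cells held 114, 109 and 136 against 61.7, 70.1 and 96.0 (0.67, SE 0.15, adjusted p = 0.0526). In both classes the lowest library labelled p16-DTR was above the highest control. Arterial cells held 177, 170 and 204 against 82.6, 137 and 132 (0.64, SE 0.17, adjusted p = 0.160). Aerocytes, the class with the highest level, held 339, 323 and 355 against 283, 305 and 291 (0.25, SE 0.06, adjusted p = 0.0860). Of all genes tested, 9.29% (general capillary), 9.26% (venous), 7.79% (arterial) and 7.19% (aerocytes) were higher without overlap. DESeq2 called Fgfr3 in general capillary cells, venous cells and aerocytes. Counting DESeq2, 3 of 9 other settings called it in general capillary cells, 3 in venous cells and 2 in aerocytes. In arterial cells 1 of 9 did, by edgeR. After thinning, 31.8% of general capillary cells had a Fgfr3 UMI in libraries labelled p16-DTR and 20.4% in controls, against 0.386% and 1.07% of neutrophils.

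Over the 15 classes tested, Fgfr3 was higher by fitted fold in 7 and lower in 8. Outside the endothelium the groups did not overlap in ciliated cells (87.7 ± 6.93 against 73.0 ± 4.31, adjusted p = 0.415), alveolar type 2 cells (8.20 ± 2.46 against 12.7 ± 1.91, adjusted p = 0.303), alveolar type 1 cells (12.5 ± 1.36 against 17.7 ± 0.587, adjusted p = 0.731) and neutrophils, with the last 3 on the lower side. Of all genes tested, 5.13% were higher without overlap in ciliated cells, and 16.1% (alveolar type 2), 9.42% (alveolar type 1) and 17.1% (neutrophils) were lower. Lymphatic endothelial cells, at 7.92 ± 1.68 and 7.003 ± 2.69 CPM of Fgfr3, overlapped between the groups. Aerocyte markers summed to 180 to 192 against 169 to 208 in general capillary cells, and arterial markers to 817 to 891 against 754 to 792. In arterial cells, general capillary markers summed to 1431 to 1647 against 1038 to 1350, and aerocyte markers to 121 to 284 against 67.9 to 181. In venous cells, general capillary markers summed to 3313 to 3959 against 3285 to 3444, with 4 of 5 higher on average, and aerocyte markers to 10.8 to 19.6 against 14.6 to 24.0. The part of these markers in the Fgfr3 values was not tested. In alveolar fibroblasts Fgfr3 stood at 110, 89.9 and 105 against 119, 116 and 109, with overlap.

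**Figure D3:**
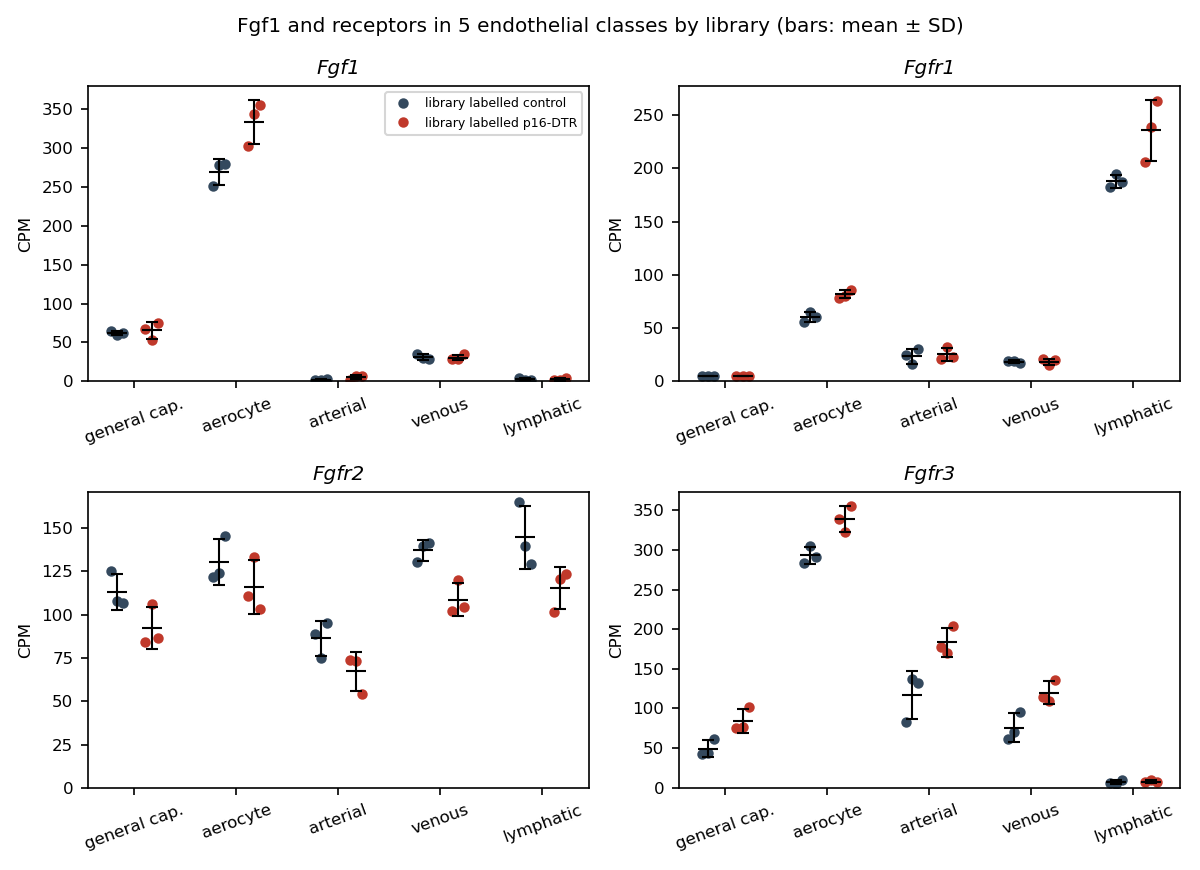
CPM of Fgf1, Fgfr1, Fgfr2 and Fgfr3 in each library for 5 endothelial classes, with points for libraries and bars for mean ± SD (n = 3). Fgfr3 in general capillary cells lies between 75.6 and 102 in libraries labelled p16-DTR and between 42.1 and 61.4 in controls, while Fgfr2 in venous cells lies lower in the libraries labelled p16-DTR.

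Fgfr4 was tested in 7 classes with 0 calls by edgeR and by DESeq2 and 1 at an unadjusted p under 0.05, in T cells at under 1 CPM on average. In alveolar fibroblasts, where nearly all its UMIs were found, it stood at 177, 167 and 133 against 164, 159 and 171, and the groups overlapped.

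**Figure D4:**
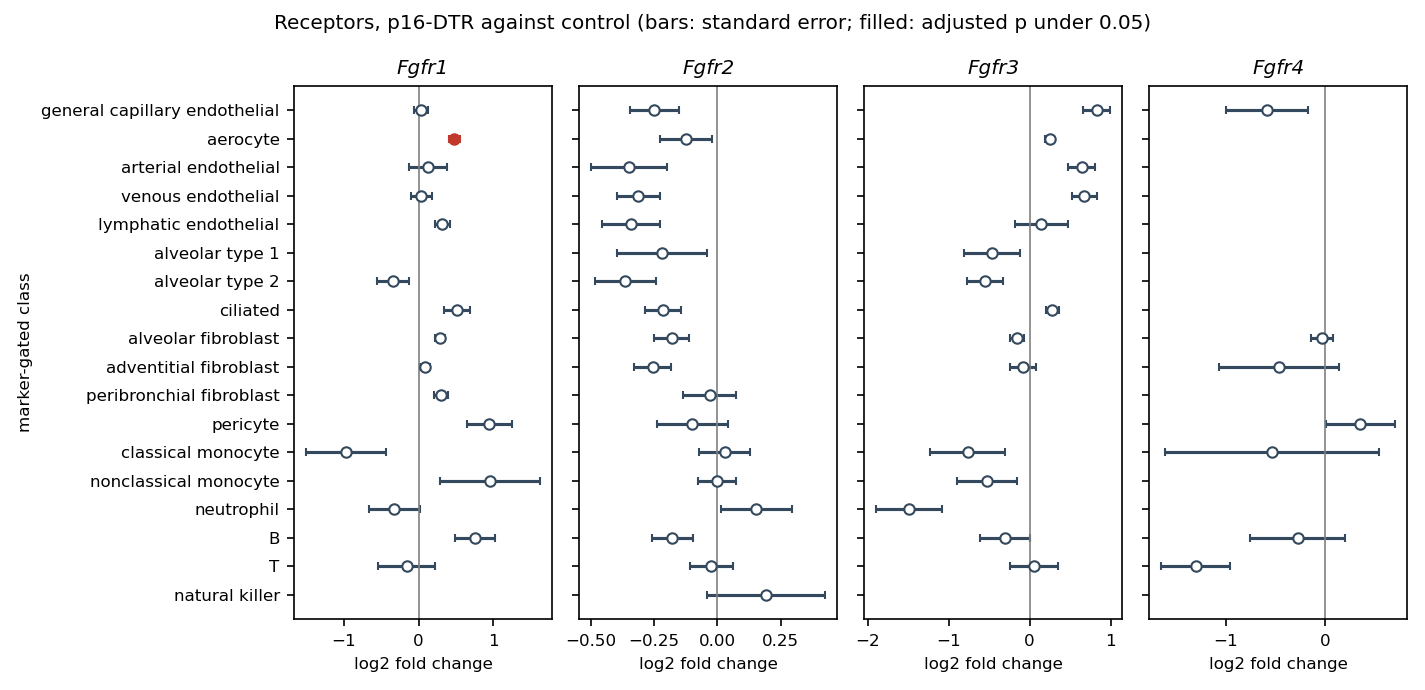
Log2 fold change (libraries labelled p16-DTR against control) with its standard error for Fgfr1 to Fgfr4 in each class tested, on an axis of its own for each gene, with filled points for an adjusted p under 0.05. The filled point is Fgfr1 in aerocytes at 0.48, Fgfr2 lies below 0 in 15 of 18 classes and Fgfr3 lies above 0 in the 4 blood endothelial classes.

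Summed over all retained cells of a library, 0 of the 9 genes were called by edgeR, 2 had an unadjusted p under 0.05, and DESeq2 called 1 (Fgfr2). In this comparison edgeR called 0% of 21630 genes and DESeq2 13.5% of 20348. Such sums do not tell fewer cells of a type from less RNA per cell. Fgfr2 stood at 87.4, 98.6 and 82.4 CPM in libraries labelled p16-DTR and at 118, 112 and 114 in controls, without overlap (-0.31, SE 0.07, adjusted p = 0.130). Of all 21630 genes tested over whole libraries, 22.5% were lower without overlap. Fgf10 stood at 82.1, 95.9 and 74.4 against 157, 95.7 and 123, with overlap by 1 library (-0.53, SE 0.19, adjusted p = 0.185). Mean shares of alveolar fibroblasts, its main source, were lower in the libraries labelled p16-DTR, and their part in the Fgf10 sums was not tested. Fgfr3 was at 64.7 ± 1.08 against 66.5 ± 1.72, Fgf1 at 37.0 ± 1.90 against 39.3 ± 5.53, and Fgf2 at 40.0 ± 6.89 against 41.5 ± 8.70, all with overlap.

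Genes that act with these ligands and receptors were read from the same fits in 6 lists of 97 genes, of which 96 were in the matrix and 89 were tested. Of 1165 combinations of gene and class, 16 were called, 6 higher and 10 lower in libraries labelled p16-DTR (1.37%, against 0.6% of all tests). The lists were chosen with earlier results of these data known, so the share of all tests is not an independent background for them. The median log2 fold change of the lists was -0.01. The 17 other FGF ligands and intracellular FGF genes gave 0 calls in 38 tests by edgeR and by DESeq2, with 3 at an unadjusted p under 0.05. The list of 22 receptor signal transducers, which holds adaptors such as Frs2 and Grb2, gave 0 calls in 383 tests by edgeR and 3 by DESeq2, with 41 at an unadjusted p under 0.05. By edgeR, co-receptors and ligand carriers gave 2 calls in 196 tests, heparan sulfate enzymes 2 in 210, feedback inhibitors 4 in 149, and transcription factors and targets 8 in 189. DESeq2 called 3, 8, 9 and 27 in these lists, and 36, 30, 32 and 60 tests had an unadjusted p under 0.05 by edgeR, in that order. The share of all genes that DESeq2 called by class is not given beside these counts.

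Venous endothelial cells held 7 of the 16 calls, in a class where 3.14% of 12104 genes were called. Dusp6, a dual-specificity phosphatase that limits the signal, rose from 77.4, 90.7 and 83.9 CPM in controls to 125, 138 and 170 in libraries labelled p16-DTR (0.80, SE 0.12, adjusted p = 0.0137, called in 6 of 6 fits without a library). Il17rd, an inhibitor of FGF signalling also known as Sef and named after its values were seen, rose from 73.8 ± 2.29 to 103 ± 8.33 (0.51, SE 0.08, adjusted p = 0.0170). The sulfatases that trim heparan sulfate moved in opposite directions, Sulf1 from 68.3 ± 7.31 to 29.1 ± 11.7 (-1.21, adjusted p = 0.0291) and Sulf2 from 30.9 ± 7.81 to 51.6 ± 5.72 (0.76, adjusted p = 0.0431). Kl, the co-receptor for FGF23, fell from 12.7 ± 1.56 to 4.87 ± 0.871 (-1.36, adjusted p = 0.0128). Egr1, an immediate early transcription factor, fell from 1628 ± 359 to 751 ± 125, and Phlda1, a pleckstrin-domain gene induced by growth factors, from 40.2 ± 13.9 to 18.6 ± 2.32. Leaving out p16-DTR replicate 3 raised the adjusted p to 0.0752 for Il17rd, 0.117 for Sulf1, 0.154 for Sulf2, 0.0557 for Kl and 0.162 for Phlda1.

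EdgeR called Egr1 lower in 4 of 18 classes, more than any other gene of the lists, with 11 at an unadjusted p under 0.05. DESeq2 called it in 8 classes, which also held T cells, ciliated cells and alveolar and adventitial fibroblasts, with no share of all genes beside this count. In general capillary cells it stood at 242, 348 and 286 in libraries labelled p16-DTR and at 860, 520 and 872 in controls (-1.32, SE 0.20, adjusted p = 0.0386, 1.48% of 15897 genes called). In arterial cells it fell from 1298 ± 319 to 469 ± 137 (-1.46, adjusted p = 0.0274, 0.213% called) and in lymphatic cells from 2462 ± 215 to 1418 ± 214 (-0.81, adjusted p = 0.04995, 0.053% called). Over all classes, which share libraries, it was lower in 14 of 18, with no share of all genes given beside this count. Of the fits that left out a library, 2, 1 and 1 of 6 kept these 3 calls, with adjusted p up to 0.118, 0.126 and 0.207. Fos, another immediate early gene, named like Etv5 after its values were seen, was higher in 9 classes and lower in 9, with 0 calls by edgeR, 8 at an unadjusted p under 0.05 and 5 calls by DESeq2.

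The other genes were each called in a single class, apart from Phlda1, called lower in venous cells and higher in alveolar type 1 cells. Dusp5, also a dual-specificity phosphatase, fell in general capillary cells from 17.1 ± 2.67 to 7.96 ± 0.622 (-1.06, SE 0.12, adjusted p = 0.0243) and was lower in 16 of 17 classes. Spry4, a Sprouty inhibitor, rose in aerocytes from 15.8 ± 0.967 to 31.6 ± 9.23 (1.05, SE 0.19, adjusted p = 0.0442), and Ccnd1, a cyclin named after its values were seen, from 291 ± 12.7 to 387 ± 39.1 (0.46, adjusted p = 0.0338). Aerocytes thus held the calls of Fgfr1, Spry4 and Ccnd1, all higher, in a class where 0.771% of 12315 genes were called and 53.7% of those calls were higher. Each of these calls was kept in 1 of 6 fits that left out a library. In alveolar type 1 cells Phlda1 rose from 54.2 ± 14.97 to 142 ± 17.0 (1.38, SE 0.20, adjusted p = 0.00839, called in 6 of 6 fits without a library). In the same cells the heparan sulfate proteoglycan gene Gpc3 fell from 88.8 ± 8.40 to 38.5 ± 15.8 (-1.15, adjusted p = 0.0444), in a class where 0.421% of 7836 genes were called. Bmp4, a growth factor gene, fell in peribronchial fibroblasts from 37.4 ± 6.72 to 18.2 ± 4.96 (-0.96, adjusted p = 0.0489). Without control replicate 1 the adjusted p was 0.186 for Bmp4, and without p16-DTR replicate 2 it was 0.203 for Gpc3, while without p16-DTR replicate 3 it was 0.146 for Spry4, 0.125 for Ccnd1 and 0.0789 for Dusp5. Etv5, a classical FGF target, was higher in 12 of 16 classes with 0 calls by edgeR and by DESeq2 and 2 at an unadjusted p under 0.05. For Dusp5 and Etv5 the directions come from classes that share libraries, and no share of all genes is given beside them.

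**Figure D5:**
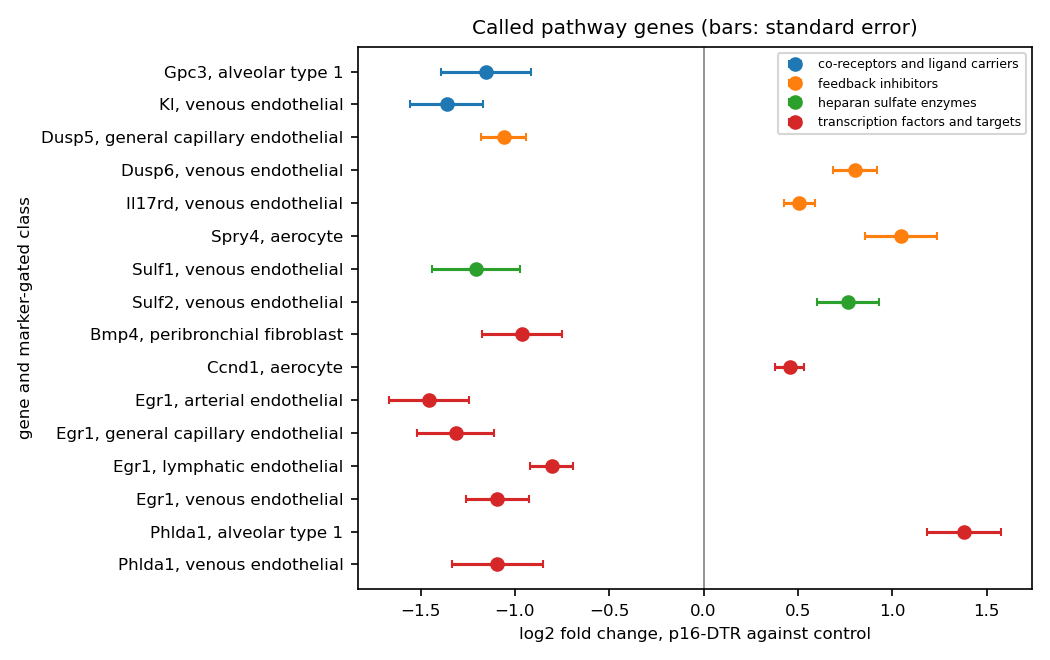
Log2 fold change (libraries labelled p16-DTR against control) with its standard error for the 16 called combinations of pathway gene and class, coloured by list. Those above 0 are Dusp6, Il17rd and Sulf2 in venous cells, Spry4 and Ccnd1 in aerocytes and Phlda1 in alveolar type 1 cells, and Egr1 lies between -0.81 and -1.46 in 4 endothelial classes.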

How the data were processed

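Single-cell RNA libraries of 3 lungs labelled p16-DTR and 3 control lungs were analysed. The authors deposited whole-number UMI counts, not normalized, made with Cell Ranger 8.0.1 on mm10, per the submitters' processing notes. The annotation release and the handling of intronic reads are not given in the sources used here. Barcodes needed 300 genes and 500 UMIs, with no more than 15% of UMIs from mitochondrial genes. Each cell was scored for 28 marker lists (mean of scaled log2 UMIs per 10000 + 1) and placed in the best class at a score of at least 0.25 with at least 3 markers and a margin of 0.1. The 1962 cells with markers of a second compartment were left out, no doublet caller was run, and 8733 cells (9.58%) lay within 0.05 of a threshold. The markers were set with the design, and the thresholds after the counts were seen.

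Counts were summed per library and class, and classes with at least 50 cells in every library were fitted with edgeR 4.0.16 (R 4.3.3; filterByExpr, TMM, quasi-likelihood test, Benjamini-Hochberg at 0.05) and tested on simulated data, where the share of false calls lay above that threshold in both simulated classes (aerocytes and peribronchial fibroblasts). With 3 libraries a group no exact permutation test could go below p = 0.1, so none was used. Total counts were 254200305 to 344421685 UMIs per library. Libraries of a group differed by more than sampling noise (chi-square per degree of freedom 87.8 to 352) and were counted separately. The labels number the mice but do not say how they were raised, so p-values measure the spread between these samples. Differences between classes were tested as an interaction with the library as a term. Alternatives were DESeq2 1.42.0, other scaling, no filter, a replicate block, stricter cell filter (1000 UMIs, 5% mitochondrial) and gate (margin 0.2), mixed cells kept, adjustment over all classes, and leaving out each library. Positions come from GENCODE M21 on GRCm38, which matched 31011 of 31054 features.

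The members and gene lists were chosen with earlier results of these data known. All 9 genes and Cdkn2a are named, then up to 10 pathway genes called in a class, by number of classes and size of change, and the 2 most alike genes of each member. Il17rd, Ccnd1, Fos and Etv5 were named after their values were seen.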

Additional observations from a re-analysis of the deposited data

Results flagged for a closer look

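The group difference of Fgf2 was larger in peribronchial than in alveolar fibroblasts by 0.81 on the log2 scale (SE 0.13, adjusted p = 0.00642 by edgeR's quasi-likelihood interaction test, 3 libraries per group). Peribronchial fibroblasts were chosen as the class where Fgf2 had its smallest p in these same data. Alveolar fibroblasts were the other fitted class with the highest Fgf2 level. The adjusted p does not account for this choice. Of 17230 genes in that test, 290 were called. Without control replicate 1 the difference was 0.71 with an adjusted p of 0.0511, and in the other fits that left out a library the adjusted p lay between 0.000935 and 0.0390.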

How the results depend on the processing

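The 2 calls among the 9 genes became 14 without the filter on low counts, 10 with DESeq2, 5 with the stricter gate and 1 with adjustment over all classes together (Fgf2 was lost), and the cause was not tested. The share of all genes called by class under these settings is not given here, so these counts have no background beside them. Leaving out each library gave 0 to 4 calls, with 0 without p16-DTR replicate 2, p16-DTR replicate 3 or control replicate 1. The 16 pathway calls became 71 without the filter, 50 with DESeq2 and 7 with adjustment over all classes together, and 3 to 16 when a library was left out (3 without p16-DTR replicate 3 and 4 without control replicate 1). In whole libraries 0 calls became 1 with DESeq2 and stayed at 0 when a library was left out. There DESeq2 called 13.5% of 20348 genes and edgeR 0% of 21630. The class difference ranged from 0.71 to 0.91 for Fgf2 and from 0.35 to 0.43 for Fgfr1 when a library was left out. Fgf2 in neutrophils, at -1.42, turned to 0.15 when cells with markers of a second compartment were kept. Of all calls over genes and classes, 42.1% were higher with TMM and 32% with library size alone.

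With the sample number as a replicate block, 7 member calls and 18 pathway calls were made, Fgf7 (adjusted p = 0.0189) and Fgf18 (adjusted p = 0.0127) in peribronchial fibroblasts and Fgf1 (adjusted p = 0.049) in aerocytes among them. The share of all genes called with this block is not given. The sample numbers are not stated to pair mice, so no pairing was used. Deviations of same-numbered whole libraries correlated at 0.292, -0.0465 and 0.307, and those of different numbers at -0.382 to 0.0840. These correlations do not settle whether the numbers pair mice.

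Among the 24 classes with levels given, depth limits alveolar type 1 cells most, at a median of 1481 UMIs per cell in libraries labelled p16-DTR and 1792 in controls. Some levels of a few CPM or less rest on few counts, such as Fgf7 in neutrophils (19 UMIs in libraries labelled p16-DTR and 68 in controls). Others rest on more, such as Fgf10 in general capillary cells (703 and 782 UMIs).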
